A study of Mus musculus with 2 samples.

Results

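The variable segments of the T cell receptor alpha chain were described in polyadenylated RNA of mouse regulatory T cells. The members are the rows of the newer gene tables that the GENCODE M21 annotation names with Trav and types as a T cell receptor V gene, which gave 108 of 55536 gene rows. The cells are labelled male and adult, 9 weeks old, of the strain Foxp3GFP-DTRCD4CreERT2R26tdTomato, whose name carries a GFP and diphtheria toxin receptor allele at Foxp3, a tamoxifen-inducible Cre at CD4 and tdTomato at R26. The labels list 2 libraries, technical replicates 1 and 2 of biological replicate 1, and so form 1 group with no conditions to compare. They do not give the tissue, how the cells were purified, how many animals were used, any tamoxifen treatment, or whether a single RNA preparation fed both libraries.

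The alpha chain gene is assembled in the thymus, where recombination joins 1 V segment to 1 J segment upstream of the constant segment Trac. The V segment encodes the leader and most of the variable domain, including the first and second loops that contact the peptide-MHC complex. A T cell clone therefore carries one or a few rearranged V segments, and a bulk sample sums the V segments of all its clones. The mouse locus holds families of related V segments, many of them present as an original set and as copies whose names carry the letter d or n after the family number. In such a sum, fewer cells with a segment and less RNA per cell cannot be told apart. The tables count reads on V segment rows and do not tell which J segment a read was joined to.

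Cells were checked against marker lists. All 5 regulatory T cell genes were detected (at 1 TPM or more in each library, where TPM is abundance scaled for transcript length and depth), with Foxp3 at 88.6 and 83.6 TPM and Cd4 at 248 and 247 TPM. Of 6 B cell genes 4 were detected, with a summed TPM of 1238 and 1195 that was mostly Ighm, while Ms4a1 had 1.02 and 0.87 TPM. The 5 gamma-delta T cell genes summed to 21.3 and 16.8 TPM (3 detected), Cd8b1 had 25.5 and 22.7 TPM, and Cd8a had 0.71 and 0.66 TPM. Of the 2 genes taken as NKT and MAIT markers, Klrb1c had 6.38 and 3.87 TPM and Zbtb16 had 0.37 and 0.51 TPM. The part of such cells in the Trav levels was not tested. Expected counts (estimated reads, in which a read shared between genes is divided) summed to 20891069 and 18571065 over all genes.

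Of 17 genes listed for V(D)J recombination and rearrangement of the locus, 14 were detected. Rag1 and Rag2, the recombinase subunits, were at 0 counts in both libraries, and Ptcra, the surrogate alpha chain of immature thymocytes, had 0.12 and 0 TPM. Dntt, which adds untemplated bases at junctions, had 1.67 and 1.74 TPM. The highest levels were those of Hmgb1, a chromatin protein and cofactor of the recombinase, at 186 and 158 TPM and of the DNA-end-binding Xrcc6 at 64.0 and 60.2 TPM.

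The last 45 bases of the V exon are shown, because this end encodes the conserved cysteine at which the variable domain runs into the joined J segment. They are given for the segment with the highest mean TPM in each of the 6 families with most counts. In Trav6, Trav6-6 and Trav6d-6 had equal values. They are from the GENCODE M21 transcripts on mm10, plus strand, and capitals mark the last TGTGC of each line.
Trav14n-3, chr14:53370531-53370575: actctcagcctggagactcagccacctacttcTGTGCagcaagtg
Trav7d-2, chr14:52684428-52684472: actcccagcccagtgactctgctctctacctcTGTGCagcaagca
Trav9-1, chr14:53488523-53488567: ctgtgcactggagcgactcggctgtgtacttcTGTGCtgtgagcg
Trav6-6, chr14:53517322-53517366: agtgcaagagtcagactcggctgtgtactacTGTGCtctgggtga
Trav12-2, chr14:53616870-53616914: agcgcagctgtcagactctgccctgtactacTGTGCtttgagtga
Trav4-4-dv10, chr14:53684133-53684177: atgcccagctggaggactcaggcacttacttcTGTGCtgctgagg
TGTGC stood within the last 20 bases of the V exon in 86 of 108 members, or 79.6%. It stood in the last 20 bases of 2.09% of all 141767 annotated transcripts. Those transcript ends were not restricted to coding sequence, so 2.09% is not a rate for coding exon ends. The reverse complement, GCACA, was found in the last 20 bases of the V exon in 0 members. The 22 members without TGTGC included Trav2, Trav3-1, Trav11, Trav11d, Trav18 and Trav19. V exons were 264 to 312 bases long, with a median of 291.5.

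All 108 members lay on the plus strand of chromosome 14, from Trav1 at chr14:52427928-52428876 to Trav23 at chr14:53977153-53977678. They spanned 1549.75 kb and ended 242.8 kb before Trac (chr14:54220521-54224206). Neighbouring members were a median of 10.2 kb apart, and the widest gap, 138 kb, followed Trav1. By the letter in the name, 46 members had no letter, 34 were d copies and 28 were n copies. The d copies occupied chr14:52683964-53079045 and the n copies chr14:53091346-53370575, with 7 members without a letter upstream of both blocks and 39 between the n block and Trac. The members fell into 21 families by the number in the name, from 15 members in Trav6 to 7 families with 1 member.

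Most segments had reads, singly or as part of a group that shares them. The detection threshold was passed by 96 of 108 members, where 23.4% of all 55536 genes passed it. Of the 96, 33 had no stretch of 50 bases to themselves, so that they are listed at a part of reads they share and their own presence was not shown. Of the 70 members with such a stretch, 63 were detected. Members summed to 1833 and 1688 TPM in technical replicates 1 and 2, a mean of 1761 ± 102 (SD, n = 2 technical libraries). Trac itself had 3019 and 2542 TPM, so the summed V segments came to 60.7% and 66.4% of it. The sums rested on 8230 and 6454 expected counts, or 0.0394% (95% exact binomial interval 0.0385 to 0.0403) and 0.0348% (0.0339 to 0.0356) of gene counts. Intervals of this kind cover counting error only, since PCR copies of a molecule could not be told from separate molecules.

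Usage was spread over many segments. The median member had a mean TPM of 13.1. Of the members 64 had a mean TPM of at least 10, 30 of at least 20 and 7 of at least 40. The member with most counts took 4.27% and 3.69% of Trav counts in the first and second library, and the 10 members with most counts took 28.8% and 27.0%. The effective number of members, the exponential of the Shannon entropy of their count shares, was 73.8 and 74.2. With segments pooled where all 50-base windows of one lie in another, described further on, 81 of 89 sets passed the detection threshold, the effective number of sets was 60.6 and 61.7, and the largest set took 4.87% and 3.84% of counts.

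**Figure D1:**
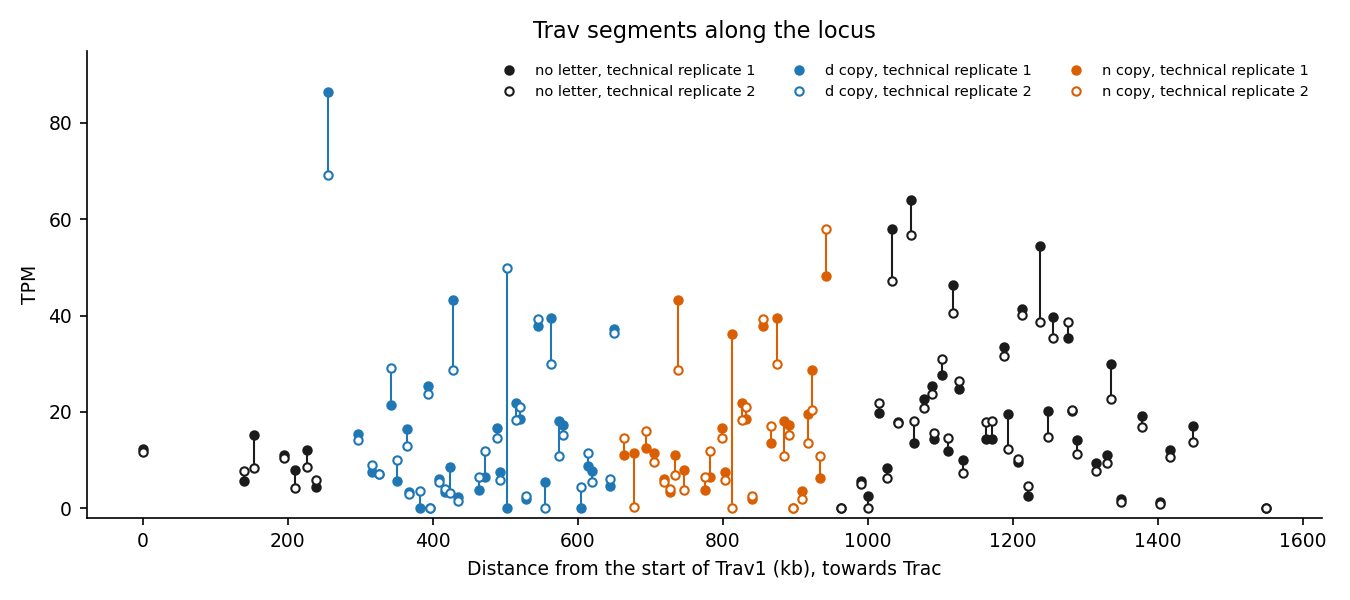
TPM of each of the 108 Trav segments against the distance of its start from Trav1 in kb, towards Trac. Filled points are technical replicate 1, open points technical replicate 2, a line joins the libraries of a segment, and colour gives the letter in the name. Values of 20 TPM or more occur in the d block, the n block and the stretch nearest Trac, and Trav7d-2 is listed highest at 86.3 and 69.1 TPM.

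Trav7d-2 (ENSMUSG00000105533.1, chr14:52683964-52684472) was listed with the highest mean TPM, 77.7 ± 12.2 (SD, n = 2 technical libraries), with 86.3 and 69.1 TPM from 351.06 and 238.19 expected counts. All reads it shares with Trav7-2 were placed on it, and by posterior mean TPM Trav7d-2 (55.2 and 48.5) stood below Trav9-1 (57.4 and 50.1) in both libraries. Trav9-1 (ENSMUSG00000096900.3, chr14:53488045-53488567) followed among single segments as listed, at 64.0 and 56.7 TPM, a mean of 60.4 ± 5.15. Trav14n-3 (ENSMUSG00000076824.3, chr14:53370077-53370575) had 48.2 and 58.0 TPM, a mean of 53.1 ± 6.88. Trav14n-3 was higher in technical replicate 2, whereas Trav7d-2 and Trav9-1 were higher in technical replicate 1. The values of Trav9-1, Trav14n-3 and Trav7-4 (58.0 and 47.2 TPM) overlapped between libraries, so their order is not fixed by these data.

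The next of the 12 highest had means between 36.8 and 46.5 TPM. Trav3-3 had 54.4 and 38.6 TPM, Trav13-1 had 46.3 and 40.5, and Trav14-2 had 41.4 and 40.04. Trav3d-3 and Trav3n-3 were each listed at 37.9 and 39.3 TPM, the same values for both segments. Trav4-4-dv10 had 39.7 and 35.3 TPM, Trav5-4 had 35.4 and 38.7, and Trav14d-3-dv8 had 37.2 and 36.5. Neighbours in this order overlapped between libraries except Trav14-2 with the Trav3 copies and, at the top, Trav7d-2 with Trav9-1. Of the 12, 3 were d copies, 2 were n copies and 7 had no letter. By expected count the leading members were Trav7d-2, Trav7-4 (329.26 and 226.95) and Trav9-1 (315.44 and 236.96). By posterior mean count Trav7d-2 (248.5 and 187.84) stood below Trav7-4 (328.99 and 226.02) and Trav9-1 (313.4 and 235.4). Trav7d-2 is listed with all reads of its pair, and segments such as Trav3d-3 with an equal part of a pair's reads. Summed over both segments, Trav3d-3 with Trav3n-3 had a mean of 77.2 TPM, Trav14d-1 with Trav14n-1 72.1 and Trav4d-4 with Trav4n-4 69.4. These sums stood above Trav9-1 (60.4). By counts, Trav14d-1 with Trav14n-1 (400.6 and 244.34) stood above Trav7d-2 (351.06 and 238.19).

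Each TPM has a deposited posterior mean with 95% credibility bounds, which belong to that mean and need not hold the TPM. For Trav7d-2 the bounds were 23.6 to 80.5 and 25.7 to 66.4, so its TPM lay above its own bounds in both. For Trav9-1 they were 50.6 to 64.8 and 42.9 to 57.1, and for Trav7-4 44.3 to 60.1 and 34.2 to 49.1. Trav3d-3 had bounds of 4.98 to 59.1 and 6.82 to 61.7, far wider than those of Trav3-3 at 40.95 to 57.4 and 26.8 to 41.6. Over all members the TPM fell outside its own bounds for 10 and 11 members, most of them below. Those below were listed at 0 TPM, apart from Trav6-3 at 0.08 TPM in technical replicate 2. Every member had a lower bound above 0, so a TPM of 0 always fell below its bounds. Among the 103 members with at least 10 counts, 6 and 7 had a TPM outside their bounds. Of all genes with that many counts, 28.4% and 32.2% had a TPM outside their bounds. The bounds of the 2 libraries overlapped for all 108 members, including 103 of the 103 with at least 10 counts, against 78.9% of such genes. Members and genes were not matched by counts or by width of bounds, so this contrast does not measure agreement between the libraries.

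**Figure D2:**
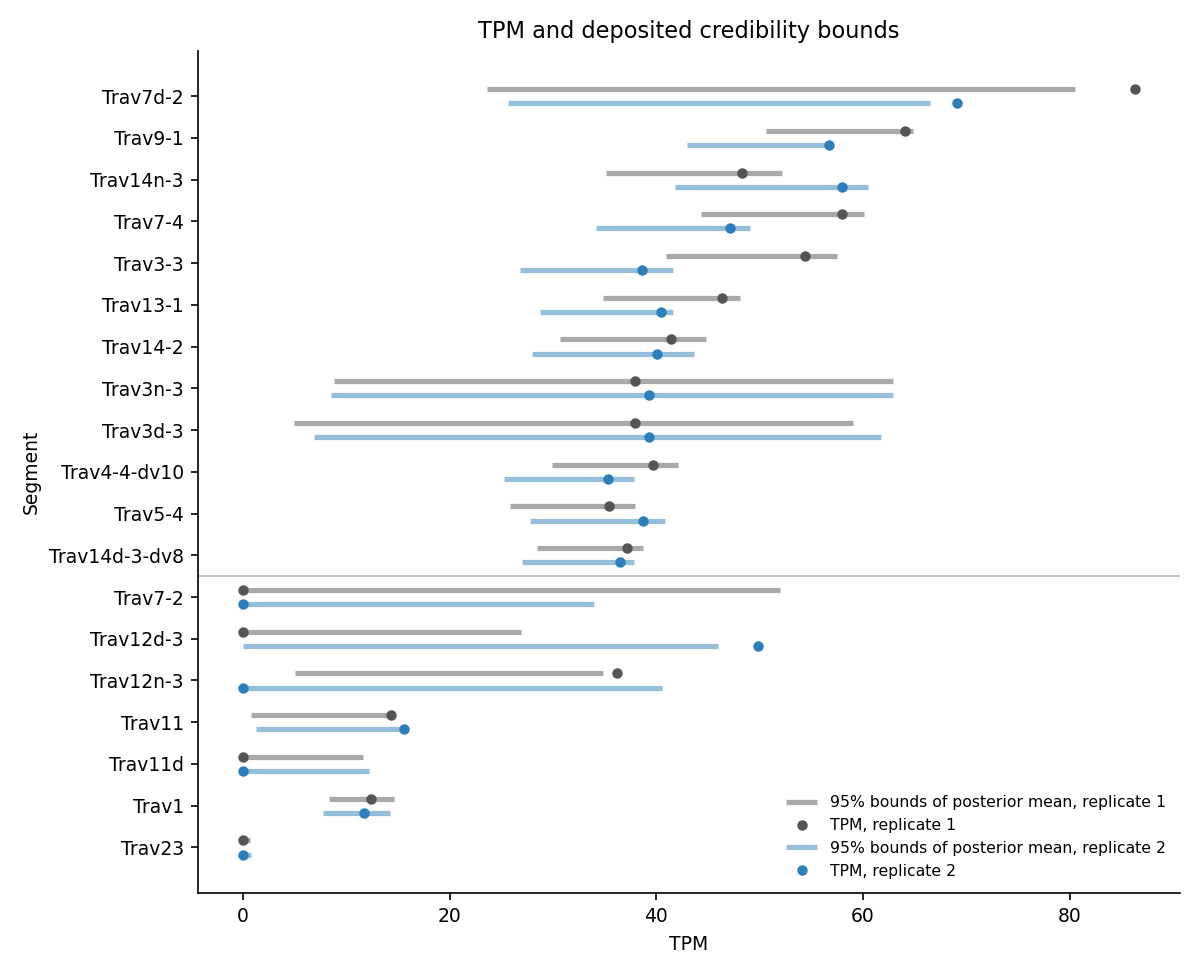
TPM (points) and the deposited 95% credibility bounds of the posterior mean TPM (bars) in technical replicate 1 (grey) and 2 (blue), for the 12 segments with the highest mean TPM above the line and 7 other named segments below it. Trav3d-3, Trav3n-3, Trav12d-3 and Trav12n-3 have bars that run over most of their range, while those of Trav9-1, Trav5-4 and Trav1 are narrow.

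How well a read can be placed differed widely between members. Each member's transcripts were read in windows of 50 bases, the size at which the deposited effective length equals the number of windows (length less 49 in all 147 member transcripts), and each window was looked for on both strands of every annotated transcript. No window of its own was found in 38 members, 29 had some but under 50%, and 41 had 50% or more. The median member had 31.4% of windows to itself. The 8 members with 100% were Trav1, Trav2, Trav5-1, Trav17, Trav18, Trav19, Trav21-dv12 and Trav23, all without a letter. Of these 8, 7 are the families with 1 member. Expected counts were whole numbers (within 0.005) in both libraries for these 8 and for no other member with counts above 0.

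All windows of one segment lay within the other in 19 pairs, here called nested pairs, which take in 38 members. Of the 38, 35 had no window of their own. The other 3 were Trav7d-2 (0.347% of windows of its own), Trav12n-3 (0.329%) and Trav15d-1-dv6d-1 (12.7%). Of the 35, all but Trav11 could not be told from their partner by reads of this size. Trav11 shared 99.7% of its windows with Trav11d, and also shared windows with the pseudogene Trav11n. Of the 19, 16 joined a d with an n copy and 3 a segment without a letter with a d copy (Trav7-2 with Trav7d-2, Trav6-6 with Trav6d-6 and Trav11 with Trav11d). Such pairs held 35.4% and 34.1% of Trav counts. In 15 of the 19 both segments carried equal expected counts and equal TPM in both libraries, as in Trav3d-3 and Trav3n-3 (147.12 and 123.78 each) or Trav6d-6 and Trav6-6 (105.44 and 83.49 each). Each such value is an equal part of the pair's reads, and the level of either of these segments alone was not measured.

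The V exons themselves show the same gradation. Of 27 pairs of d and n copies with the same family and member number, 17 were identical over the aligned V exon and the median identity was 100%, with a range from 91.4%. The 31 pairs of a segment without a letter and its d copy had a median identity of 97.9% (94.9 to 100), with 3 identical. The 25 such pairs with an n copy had a median of 97.3% (91.8 to 99.7). Trav12d-3 and Trav12n-3 are shown over their last 60 bases, since the reads of this pair were divided differently in the libraries, and the V exons were identical over all 301 bases.
Trav12d-3, chr14:52930223-52930282: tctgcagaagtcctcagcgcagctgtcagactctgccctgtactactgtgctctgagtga
Trav12n-3, chr14:53241185-53241244: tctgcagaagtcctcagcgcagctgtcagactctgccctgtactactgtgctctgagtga
No base differed between these lines. Trav7d-2 and Trav7-2 are shown next, because the first is listed with the highest TPM of all members and the second at 0. The capital marks the 1 base by which the annotated V exon of Trav7d-2 runs on.
Trav7d-2, chr14:52684422-52684472: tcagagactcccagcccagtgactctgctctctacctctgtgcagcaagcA
Trav7-2, chr14:53391093-53391142: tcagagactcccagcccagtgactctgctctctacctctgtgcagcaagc
Trav14-3 and its copies give a contrasting case, in which each copy keeps windows of its own. Over 309 bases of V exon, 12 positions were not shared by all 3, and 8 of them lie in the last 150 bases, where they are in capitals.
Trav14-3, chr14:53763545-53763694: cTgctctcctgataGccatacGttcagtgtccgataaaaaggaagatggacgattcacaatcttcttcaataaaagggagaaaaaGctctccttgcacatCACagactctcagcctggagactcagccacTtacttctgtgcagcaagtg
Trav14d-3-dv8, chr14:53078896-53079045: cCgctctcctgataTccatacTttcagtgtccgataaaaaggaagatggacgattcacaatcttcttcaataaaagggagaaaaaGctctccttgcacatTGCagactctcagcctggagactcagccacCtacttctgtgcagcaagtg
Trav14n-3, chr14:53370426-53370575: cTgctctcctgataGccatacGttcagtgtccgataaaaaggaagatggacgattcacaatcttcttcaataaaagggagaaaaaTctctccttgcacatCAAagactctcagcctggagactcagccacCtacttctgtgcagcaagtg
Trav14-3 had 43.3% of windows of its own, Trav14d-3-dv8 61.2% and Trav14n-3 53.8%. Their counts were 141.99 and 90.86, 213.47 and 177.68, and 191.28 and 198.79.

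Where fewer windows were a segment's own, the deposited bounds were wider. The width of the bounds divided by the posterior mean TPM had a median of 1.87 in members with 0% of windows of their own, 0.918 in those with under 50%, 0.636 in those with at least 50%, and 0.584 in the 8 with 100%. Across 108 members the share of own windows and this width had a Spearman rho of -0.71, and members share libraries and, within families, sequence. The widest relative bounds among detected members were those of Trav15n-2 and Trav15d-2-dv6d-2, 2.16 and 2.08 times the posterior mean. Both were listed at 1.96 and 2.59 TPM.

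The older whole-number counts, made on the GENCODE M4 annotation, listed 98 of the members. They held 2374 and 1937 counts there, against 7604 and 5996 expected counts for the same segments. In members with 0% of windows of their own the older counts were 1.93% and 2.24% of the newer ones. They were 23.6% and 26.8% in members with some but under 50%, 62.0% and 61.4% with at least 50%, and 97.7% and 100.4% with 100%. The median over all genes with at least 10 newer counts was 45.6% and 48.6%. Trav17 had 84 and 59 older counts against 79 and 59 newer ones, and Trav19 had 64 and 51 against 68 and 51. By contrast Trav3d-3, Trav4d-4 and Trav6-6 had 0 older counts in both libraries. Of the 98, 29 were at 0 in both older tables, and 28 of those 29 had no window of their own. Over 90 members with at least 20 newer counts, the share of own windows and the ratio of older to newer counts had a Spearman rho of 0.94, and both counts come from the same libraries.

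**Figure D3:**
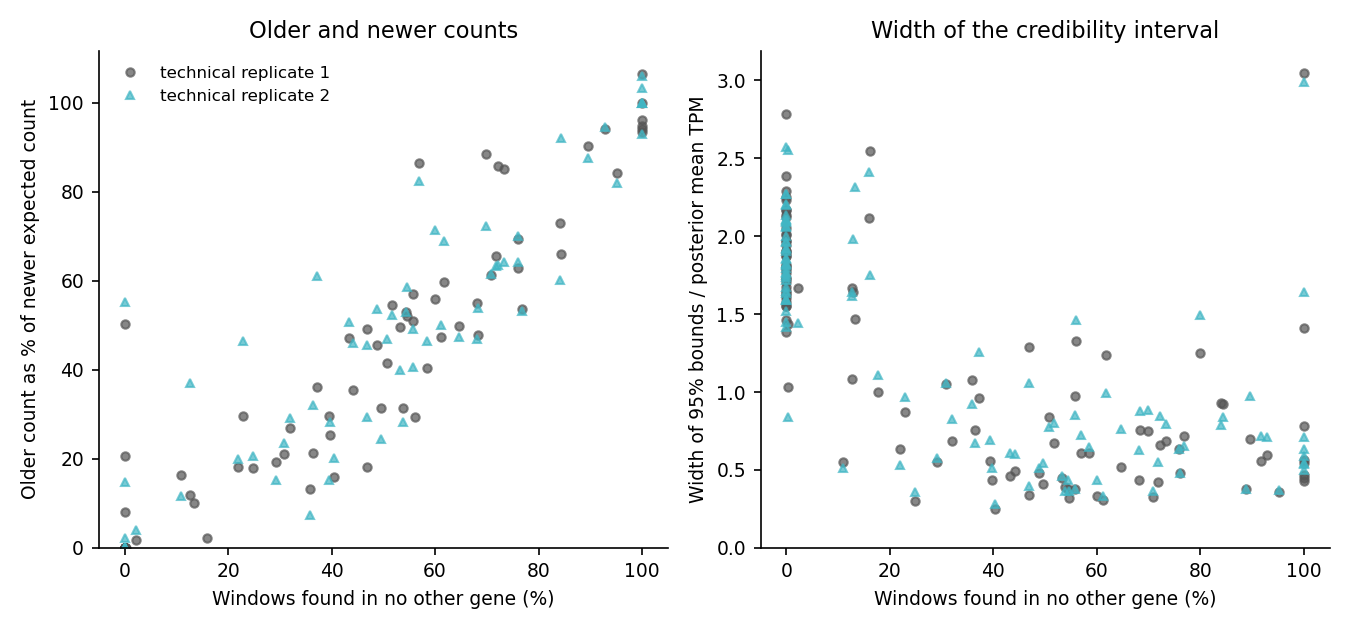
Share of each segment's 50-base windows found in no other gene, against the older count as a percent of the newer expected count (left, members with at least 20 newer counts) and against the width of the 95% credibility bounds divided by the posterior mean TPM (right, all 108 members). Circles are technical replicate 1 and triangles technical replicate 2. The ratio climbs from near 0 to about 100 as windows become a segment's own, and the bounds narrow.

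Summed by family, counts were more firmly placed. The sum over a family's members was a whole number (within 0.05) in both libraries in 14 of 21 families. These 14 include the 7 families with 1 member, whose counts were whole without summing. Once the rows outside the rule that share windows with the family were added, the sum was whole in 21 of 21. For Trav11, for example, 59.30 and 54.86 counts on Trav11 and 2.70 and 9.14 on the pseudogene Trav11n summed to 62 and 64. For Trav9, 852.26 and 683.58 counts of members and 7.74 and 9.43 of Trav9n-1 summed to 860 and 693.01. With those rows no part of a read was left over in any family.

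Trav14 was the leading family by counts, with 1393 and 1098 expected counts over 9 members, or 16.9% (95% exact binomial interval 16.1 to 17.8) and 17.0% (16.1 to 18.0) of Trav counts. Trav7 had 15.1% and 15.4% over 13 members, Trav9 10.4% and 10.6% over 10, Trav6 9.81% and 9.34% over 15, and Trav12 8.54% and 9.17% over 9. These 5 families held 60.7% and 61.5%. The first 10 families stood in the same order in both libraries, continuing with Trav4, Trav3, Trav13, Trav5 and Trav8. By TPM, which accounts for length, Trav6 (191 and 167) stood above Trav9 (157 and 144), and Trav14 (305 and 283) and Trav7 (270 and 253) remained ahead. Family counts had a Spearman rho of 0.91 with the number of members over 21 families, a description in which both measures grow with the number of rows.

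**Figure D4:**
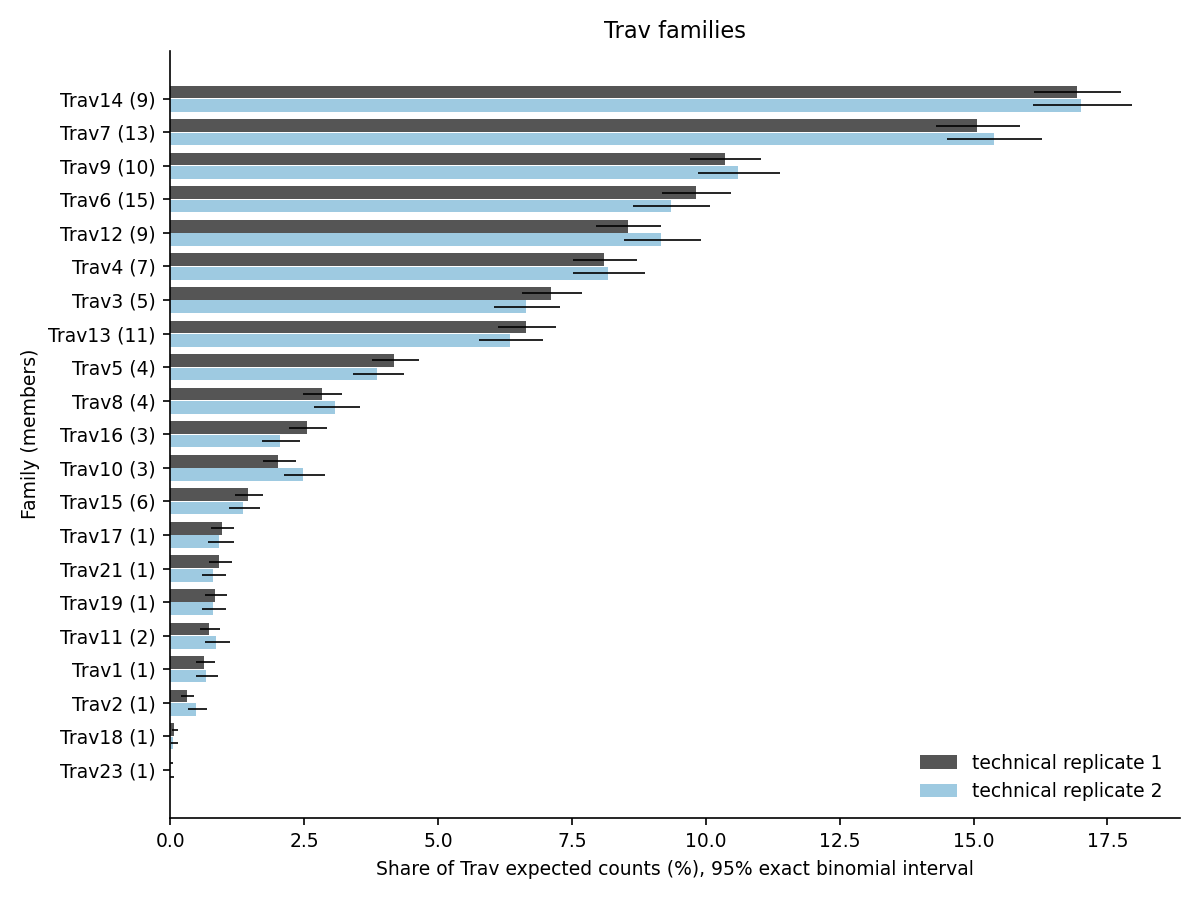
Share of all Trav expected counts taken by each of the 21 families in technical replicate 1 (dark bars) and 2 (light bars), with 95% exact binomial intervals and the number of members in brackets. Trav14 leads at 16.9% and 17.0%, and Trav18 and Trav23 are at or near 0.

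All 9 members of Trav14 were detected, at mean TPM from 19.7 to 53.1. Trav14d-1 and Trav14n-1, a nested pair, were each listed at 200.30 and 122.17 counts, and Trav14d-2 and Trav14n-2 at 72.95 and 68.67 each. Trav14-1 had 122.33 and 110.95 counts with 95.1% of windows of its own, and Trav14-2 had 177.41 and 138.03. For the members of these pairs the bounds reached down to between 0.965 TPM (Trav14d-2) and 13.6 TPM (Trav14d-1) in technical replicate 1. Summed, the pair of first copies (400.60 and 244.34) held more counts than Trav14-1 in both libraries.

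In Trav7 the reads of Trav7d-2 and Trav7-2 form a single pool that was placed on Trav7d-2. Besides Trav7d-2 and Trav7-4, Trav7d-4 had 121.12 and 140.15 counts, Trav7-5 112.16 and 107.11, and Trav7-3 98.35 and 92.51. Trav7-1 (49.43 and 29.63), Trav7n-4 (45.77 and 51.13), Trav7-6 (45.09 and 30.37) and Trav7d-3 (37.87 and 38.31) came next. Trav7d-5 and Trav7n-5 were listed at 24.92 and 18.95 each. Trav7-2 and Trav7n-6 were at 0 in both libraries.

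These zeros stand beside wide bounds. All windows of Trav7-2 lie in Trav7d-2, and its posterior mean TPM was 23.0 and 13.2 with bounds of 0.0581 to 52.0 and 0.00161 to 34.0. The older tables gave Trav7-2 17 and 12 counts and did not list Trav7d-2. Trav7n-6 has no window of its own either, shares most with the V gene C920008G01Rik, which had 73.06 and 54.76 counts, and had upper bounds of 13.1 and 12.6 TPM.

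Trav9 had 9 of 10 members detected. After Trav9-1 came Trav9-2 (104.86 and 110.14 counts), Trav9n-4 (104.36 and 111.54) and Trav9-4 (98.55 and 60.97). Trav9d-1 had 67.03 and 44.41 counts, Trav9d-3 and Trav9n-3 had 55.38 and 37.44 each, and Trav9d-2 and Trav9n-2 had 15.59 and 22.34 each. Trav9d-4 had 20.08 counts in the first library and 0 in the second.

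Trav6, the family with most members, had 13 of 15 detected and no member above 26 TPM in either library. Trav6-6 and Trav6d-6 led at 25.3 and 23.7 TPM each, followed by Trav6-7-dv9 at 20.2 and 20.3, and by Trav6d-7 and Trav6n-7 at 17.4 and 15.3 each. Trav6-5 had 13.6 and 18.1 TPM, Trav6d-3 15.5 and 14.2, and Trav6n-6 11.4 and 9.63. Trav6-1, Trav6-2, Trav6-4 and Trav6d-4 lay between 4.29 and 8.26 TPM in both libraries, and Trav6d-5 at 3.33 and 2.85. The remaining members, Trav6n-5 (46.39 and 0.82 counts) and Trav6-3 (11.74 and 0.23 counts), had counts in the first library and under 1 count in the second.

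In Trav12, Trav12-2 had 177.85 and 142.98 counts and Trav12-3 109.11 and 57.68, while the pair Trav12d-3 and Trav12n-3 summed to 155.50 and 177.83. All 7 members of Trav4 were detected, led by Trav4-4-dv10 (174.79 and 131.76) and by Trav4d-4 and Trav4n-4 (170.35 and 109.08 each). Trav3 held 5 members, from Trav3-3 (207.29 and 139.92) to Trav3-4 (11.11 and 6.73). The ranges of Trav3-3 and Trav3-4 did not overlap. In Trav13 the leading member was Trav13-1 (184.50 and 136.49), in Trav5 it was Trav5-4 (147.12 and 136.03), and in Trav8 Trav8n-2 and Trav8-1 had 99.07 and 58.49, and 70.72 and 58.94 counts. Trav16 rested mostly on Trav16n (127.44 and 77.94) and Trav10 on Trav10 (114.34 and 88.79). In Trav15, Trav15-1-dv6-1 had 42.49 and 28.58 counts and the nested pair Trav15d-1-dv6d-1 and Trav15n-1 summed to 45.50 and 20.42.

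The families with 1 member gave the values least affected by shared reads. Trav17 had 79 and 59 counts (19.2 and 16.9 TPM), Trav21-dv12 75 and 51, Trav19 68 and 51, Trav1 52 and 43, and Trav2 25 and 31. Trav18 had 5 and 3 counts, at 1.28 and 0.91 TPM. Trav23, the member nearest Trac, had 0 counts in both libraries although 100% of its windows are its own, and 3 counts, the limit that 0 allows, would be 0.713 and 0.841 TPM.

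Trav1 and Trav11 are known from T cells with near-invariant receptors, Trav1 from MAIT cells, which recognise microbial vitamin B metabolites on MR1, and Trav11 from NKT cells, which recognise lipids on CD1d. Their V exon ends are shown with those of Trav11d and of Trav23, the last member by position, listed at 0, and capitals mark the first TGT, a cysteine codon, within the last 16 bases.
Trav1, chr14:52428832-52428876: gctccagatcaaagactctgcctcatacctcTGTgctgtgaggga
Trav11, chr14:53519815-53519859: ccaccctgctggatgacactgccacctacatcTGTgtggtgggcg
Trav11d, chr14:52824868-52824912: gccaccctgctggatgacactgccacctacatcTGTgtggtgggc
Trav23, chr14:53977634-53977678: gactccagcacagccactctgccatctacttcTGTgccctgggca
Trav11d is annotated 1 base shorter than Trav11 and is identical over the 290 aligned bases, which is why the lines are offset by a base. Trav1 had 12.4 and 11.7 TPM, with bounds of 8.35 to 14.6 and 7.75 to 14.2. Trav11 had 14.3 and 15.6 TPM and Trav11d 0 in both, but the bounds of Trav11 reached down to 0.749 and 1.24 and those of Trav11d up to 11.6 and 12.2. The older tables listed both Trav11 and Trav11d at 0. Trav1 and Trav11 lay near the median member (13.1 TPM). Rearranged receptors were not read out here, so these levels do not tell how much came from invariant receptors.

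Segments not detected were few and mostly of the shared kind. Besides Trav7-2, Trav7n-6, Trav11d and Trav23, which were at 0 in both libraries, 5 members were at 0 in exactly 1 library: Trav10d, Trav12d-3 and Trav13d-3 in technical replicate 1, and Trav9d-4 and Trav12n-3 in technical replicate 2. Among members with at least 10 counts this was 5 of 103, where 0.691% of all such genes were at 0 in exactly 1 library. Trav6n-5, Trav6-3 and Trav18 made up the 12. Trav13d-3 and its n copy also overlap the antisense genes Gm30214 (14.78 and 0 counts) and Gm43650 (14.95 and 28.93), and the sources used here do not say whether counting used strand.

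Along the chromosome the members nearest Trac held the most counts. In order of position and cut into groups of 36, the group nearest Trac held 44.3% (95% exact binomial interval 43.2 to 45.4) and 44.4% (43.1 to 45.6) of Trav counts, the middle group 28.6% and 26.7%, and the group farthest from Trac 27.1% and 28.9%. All 36 members nearest Trac carry no letter, whereas the middle group is 28 n copies, 5 d copies and 3 others, and the farthest group is 29 d copies and 7 others. Position and copy class therefore cannot be told apart. By posterior mean counts the group nearest Trac held 43.8%. By the older counts it held 68.1% and 66.5%. Position in kb and mean TPM had a Spearman rho of 0.22 over 108 members and 0.13 over the 41 with at least 50% of windows of their own.

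By class, members without a letter held 48.4% and 47.9% of Trav counts, d copies 27.1% and 29.9%, and n copies 24.5% and 22.2%. The median member had a mean TPM of 15.2 without a letter, 8.75 among d copies and 13.5 among n copies. A member without a letter was compared with each of its copies, or with the sum where the d and n copy form a nested pair. It had more counts in both libraries in 16 of 23 comparisons with a single copy and fewer in 5. Against the sum of a nested pair it had more in 5 of 15 and fewer in 7, as for Trav3-3 (207.29 and 139.92 against 294.24 and 247.56). Among single copies, cases with fewer counts than a copy included Trav16, with 49.44 and 34.41 counts against 127.44 and 77.94 for Trav16n, and Trav14-3 against both its copies. These comparisons use expected counts, which depend on how shared reads were divided. Trav6-3 was among the cases with fewer, but its posterior mean counts were 35.39 and 18.85 against 33.61 and 30.15 for Trav6d-3. Trav6-6, with more than Trav6n-6, is listed at an equal part of the reads it shares with Trav6d-6. In the older counts, members without a letter held 78.2% and 76.1%, with 28 of the 33 listed members of nested pairs at 0.

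Of the 108 members, 39 had 2 annotated transcripts. By the deposited percent of a gene taken by each transcript, the longer held at least 50% in both libraries in 14 of the 39. It held under 50% in both in 16. The 16 include Trav9d-4, which had 0 counts on either transcript in technical replicate 2. Trav14n-3 had 61.6% and 68.6% on its longer transcript of 361 bases, Trav16n 19.4% and 25.7% on its longer one of 412. In Trav6-2, whose transcripts are 341 and 338 bases long, the longer held 0% in the first library and 100% in the second.

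The libraries were then compared with each other per segment. A two-sided exact binomial test on rounded counts, with library sizes scaled by TMM and adjustment by Benjamini-Hochberg over all 16553 genes with at least 10 counts, compares these 2 libraries and not conditions, and its p-values measure only the spread between them, which may be technical. It called 17 of 103 tested segments at an adjusted p under 0.05, where it called 34.7% of all genes tested. Of the 17, 4 were higher in technical replicate 2 (21.6% of all genes) and 13 lower (13.0%). The share of Trav segments called was below that of all genes, but segments and genes were not matched by counts. The share of all genes called depends on counts, at 19.2% with no count minimum and 44.2% with 50 counts. At an assumed dispersion of 0.01, edgeR's exactTest called 8 of 103 segments (10.8% of all genes), and at 0.04 it called 6 (0.707% of all genes), so the order of the shares turned. By other scalings it was 18 (DESeq2 size factors, 35.6% of all genes) and 23 (total counts, 38.9%). By posterior mean counts it was 12 of 106 (33.2%), with no count minimum 13 of 104 (19.2%) and with 50 counts 14 of 79 (44.2%). The median log2 ratio of technical replicate 2 over 1 was -0.15 for the segments and 0.02 for all genes, and the median absolute log2 ratio was 0.33 and 0.24. Trac, Trbc1, Trbc2 and the 4 CD3 chains, 7 listed genes in all, were each called lower in technical replicate 2, Trac by a log2 ratio of -0.24.

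The largest differences lay in segments with at most 16.2% of windows of their own. Their counts depend on how shared reads were divided, so a listed 0 sets no limit on the level and no fold is given for them. Trav12d-3 was listed at 0 and 177.83 counts (exact binomial test, adjusted p 3.9e-59), but its posterior mean counts were 57.03 and 112.49. Trav12n-3 was listed at 155.50 and 0 (adjusted p 9.31e-41 by the same exact test), with posterior mean counts of 97.75 and 64.32. Their sum, 155.50 and 177.83, differed by a log2 ratio of 0.42 ± 0.16 (SE) with an adjusted p of 0.026 in the exact test on sums of nested pairs. The difference of the pair was far smaller than that of either copy. Summed in this way, 17 of 86 sets were called (34.7% of all rows).

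Trav13d-3 (0 and 18.40 counts) and Trav10d (0 and 15.13) were called higher in technical replicate 2, with adjusted p of 5.18e-06 and 4.76e-05 in the exact test. Trav9d-4 (20.08 and 0), Trav6n-5 and Trav6-3 were called lower (adjusted p 4.88e-05, 1.35e-10 and 0.00292, exact test). By posterior mean counts these segments stood at 2.68 and 9.61, 8.84 and 17.11, 24.25 and 8.9, 31.75 and 14.55, and 35.39 and 18.85, in the order named, and the exact binomial test on those counts called none of the 5 (adjusted p 0.0944 to 0.266). Trav12d-3 was called by that test too (adjusted p 1.1e-06, exact test), and Trav12n-3 was not (0.239). In all, 8 of the 17 calls held with posterior mean counts. The other calls were smaller. Trav7d-2 had a log2 ratio of -0.33 ± 0.12 (SE), Trav7-4 -0.30 ± 0.12, Trav7d-4 0.44 ± 0.18, Trav12-3 -0.67 ± 0.23, Trav3-1 -0.84 ± 0.30 and Trav13d-1 -1.42 ± 0.45. The nested copies Trav14d-1 and Trav14n-1 (-0.48 each) and Trav5d-4 and Trav5n-4 (-0.74 each) were called as pairs of equal values. On posterior mean counts the exact binomial test did not call Trav7d-2, Trav14n-1 or Trav5d-4 (adjusted p 0.419, 0.233 and 0.139). The rest of these smaller calls held.

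Of segments with 0% of windows of their own, 6 of 35 tested were called, and of those with some but under 50%, 9 of 29, where the test called 34.7% of all genes. With at least 50% it was 2 of 39 (Trav3-1 and Trav12-3), and among the 6 tested segments with 100% it was 0 by the exact binomial test, also at an unadjusted p under 0.05, and 0 by edgeR's exactTest. Levels in the libraries had a Spearman rho of 0.91 over the 41 segments with at least 50% of own windows, and of 0.80 and 0.79 over the 38 and 29 with 0% and with under 50%. Most of the 35 were equal parts of a read pool listed under both segments of a nested pair, so they are not separate tests. Each carries only part of the pool's reads, so their share called cannot be set directly against that of all genes. Some pairs were called as sums though neither copy was. Their log2 ratios were -0.41 ± 0.12 (SE) for Trav4d-4 with Trav4n-4, 0.83 ± 0.26 for Trav4d-3 with Trav4n-3 and -0.95 ± 0.38 for Trav15d-1-dv6d-1 with Trav15n-1. Whether the division of reads made the difference between these classes was not tested.

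Family sums differed less than single segments. The same exact binomial test on 19 family sums with at least 10 counts called 2, both lower in technical replicate 2, where it called 34.7% of all rows tested (13.0% lower). They were Trav16 (210.00 and 131.99 counts, log2 ratio -0.43 ± 0.16 SE, adjusted p 0.0216 in the exact test) and Trav6 (807.00 and 602.97, -0.19 ± 0.08, adjusted p 0.0471 in the exact test). The median absolute log2 ratio of family sums was 0.18. By other settings 3 (DESeq2 size factors, 35.7% of all rows), 7 (total counts, 39.0%) and 1 (posterior mean counts, 33.3%) were called, and edgeR's exactTest called 0 at both assumed dispersions (10.8% and 0.656%), with 0 at an unadjusted p under 0.05. No segment of Trav16 was called by itself. The sum of Trav12 had a log2 ratio of -0.01 ± 0.08, although 3 of its segments were called. Family counts of the libraries had a Spearman rho of 0.99 over 21 families, and larger sums carry less counting error than single segments.

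**Figure D5:**
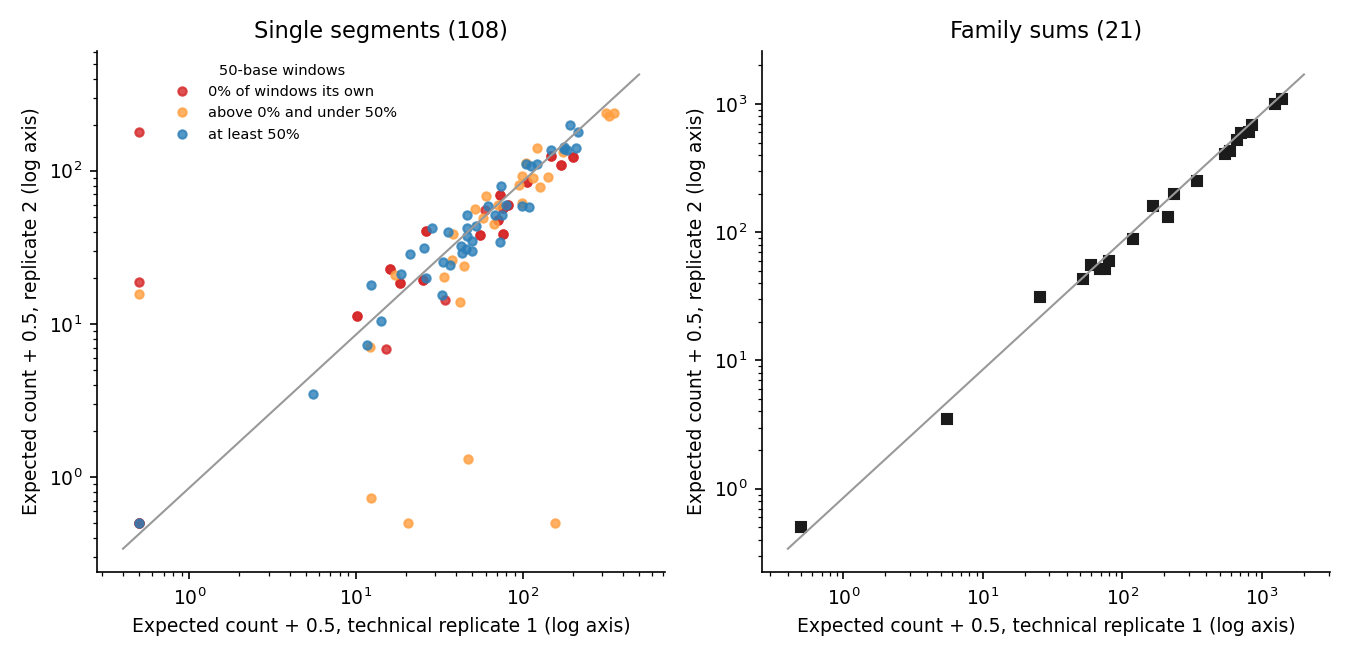
Expected count + 0.5 in technical replicate 1 against technical replicate 2 on log axes, for single segments (left, coloured by the share of own 50-base windows) and for family sums (right). The grey line is the ratio of the scaled library sizes. Segments at 0 in one library, such as Trav12d-3 and Trav12n-3, stand far off the line at left and have under 50% of windows of their own, and the family sums lie closer to it.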

How the data were processed

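Per the labels, polyadenylated RNA of mouse regulatory T cells was sequenced as 2 technical libraries (1 group). The authors deposited gene and transcript tables on mm10 with GENCODE M21, per the text descriptions beside them, with headings of the kind RSEM writes. The aligner and quantifier are not given in the sources used here. Expected counts deposited there are estimated reads, rounded here to whole numbers for tests. TPM values deposited by the authors are scaled for effective length and depth. The posterior mean TPM, used as a signal, and its 95% credibility bounds are also deposited by the authors, per the file headers, as is the percent of each gene in each transcript. Older whole-number counts on GENCODE M4 were deposited by the authors, with the counter not given in the sources used here. Gene expected counts summed to 20891069 and 18571065 (6047614 and 5889818 in the older ones). Rows naming no gene held 0.307% and 0.242% of counts and were left out.

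Families and copy classes were read from gene names, positions from GENCODE M21. Windows of 50 bases were matched to all 141767 annotated transcripts. V exons were aligned with Biopython 1.88. Libraries were compared per gene by a two-sided exact binomial test (scipy 1.17.1) with edgeR 4.0.16 TMM factors of 1.02 and 0.978, at least 10 counts, 0.5 added in log2 ratios, and Benjamini-Hochberg adjustment over all genes. With 1 library against 1 there were no residual degrees of freedom for edgeR's quasi-likelihood fit. Alternatives used DESeq2 1.42.0 size factors, total counts, count minimums of 1 and 50, posterior mean counts and edgeR's exactTest at assumed dispersions of 0.01 and 0.04. The test was checked on simulated counts. Intervals of shares are 95% exact binomial. Named segments were the 12 with the highest mean TPM, the 3 with most counts, the 3 highest and lowest ratios among those called, those at 0 in both libraries, Trav1, Trav11 and Trav11d, the first and last by position, all members of the 4 leading families, and the 2 with the widest relative bounds. Other segments named were chosen after their values were seen. Members, lists and tests were chosen with earlier results of these data known. Protein sequences were not used here.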

Additional observations from a re-analysis of the deposited data

Results flagged for a closer look

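Some V rows of the locus lie outside the rule for members, being named differently or typed as pseudogenes, and held more than the 3 counts that a count of 0 allows in both libraries. C920008G01Rik, typed as a V gene without a Trav name and sharing windows with Trav7n-6, had 73.06 and 54.76 expected counts in technical replicates 1 and 2. B230359F08Rik, a V gene that shares windows with Trav13, had 9.98 and 5.98. Of 20 Trav pseudogenes, which together had 72.44 and 60.66 counts or 0.880% and 0.940% of those of the members, 9 were at 0 in both libraries. Trav8-2 (42.76 and 33.23) and Trav9n-1 (7.74 and 9.43) were the 2 above 3 counts in both. The delta chain V segments interspersed at the end nearest Trac were also present, with Trdv1 at 38 and 31 counts, Trdv2-2 at 51.06 and 34.02 and Trdv2-1 at 4.66 and 4.92. The delta constant segment Trdc had 2.95 and 2.88 TPM.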

How the results depend on the processing

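The number of segments detected was 80 at 5 TPM, 90 at 10 counts, 97 at 0.5 TPM, 106 by posterior mean TPM, and 99 or 101 with 1 library alone. A lower bound above 0, which 99.9% of all genes had, was met by 108 and so does not bear on detection. The summed TPM was 1608 by posterior means, and 1688 to 1833 leaving out a library. The share of Trav14 was 16.7% by TPM, 16.9% to 17.0% leaving out a library, and 18.9% by older counts. The share of the members nearest Trac was 42.9% by TPM, 43.8% by posterior mean counts, 42.6% when the locus was cut by distance and 67.3% by older counts, and 44.3% to 44.4% leaving out a library. That of d and n copies was 53.1% by TPM, 51.2% by posterior mean counts and 22.8% by older counts, against 51.9%, and 51.6% to 52.1% leaving out a library. Segments called between libraries numbered 12 to 23 under other scalings, count minimums and posterior mean counts, against 17. By edgeR's exactTest they numbered 8 at an assumed dispersion of 0.01 and 6 at 0.04. Families called numbered 7 by total counts, 3 by DESeq2 size factors and 1 by posterior mean counts, against 2. edgeR's exactTest called 0 families at both dispersions, with 0 at an unadjusted p under 0.05. The ratio of the segments' to the families' median absolute log2 ratio was 1.84, and 1.78 by posterior mean counts. Older counts and sums of nested pairs (17 of 86 called) were alternatives chosen after seeing the data. Comparisons between the libraries could not be made without one of them. No paired analysis was possible because there was 1 group. With 1 biological replicate, no value here has a biological error. A segment with no window of its own has no level that these reads alone set apart from the genes it shares them with.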
